A study of Schmidtea mediterranea with 14 samples.

Results

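The 4 tissue markers of the planarian *Schmidtea mediterranea* examined here were followed through knockdown of *apolipoprotein b*: *nkx2.2* (dd_Smed_v6_2716_0_1), *ctsla* (dd_Smed_v6_267_0_1), *ChAT* (dd_Smed_v6_6208_0_1) and *laminin* (dd_Smed_v6_8356_0_1). They were chosen by identifier out of 28069 transcripts in the deposited counts. Each is a transcript of intestine, nervous system or pharynx that the study cloned, as it did the intestinal *apob-1* and *apob-2*. All 4 passed the filter on low counts, which 18436 transcripts passed. RNA was sequenced from whole, uninjured animals of CIW4, a clonal asexual line, in 14 libraries. Each came from a separate pool of 5 to 6 animals given 3 dsRNA meals followed by 7 days of starvation. The recorded amount of dsRNA was 2 µg for every library. The 6 control libraries came from animals fed dsRNA of *egfp*, a jellyfish gene that planarians lack. The other 8 came from animals that ate *apob-1* dsRNA together with *apob-2* dsRNA. These were sorted by phenotype into mild (*apob-M*, 4 libraries) and severe (*apob-S*, 4 libraries) animals. The study describes mild as a modest or regional loss of pigment. It describes severe as loss of pigment over the whole animal together with reduced motility. Severity was therefore an outcome of the treatment and not an assigned dose.

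Apolipoprotein B is the scaffold protein of the lipoprotein particles that carry neutral lipids and cholesterol from the intestine to other tissues. The planarian intestine is a branched, blind-ended organ whose phagocytes take up and store food, the pharynx is the muscular tube through which the animal feeds, and the nervous system consists of a cephalic brain with ventral nerve cords. In other animals, Nkx2.2 is a homeodomain transcription factor of the NK-2 class, cathepsin L is a cysteine protease of lysosomes that also digests food in invertebrate guts, choline acetyltransferase (*ChAT*) makes the transmitter acetylcholine, and laminins are the multidomain glycoproteins on which basement membranes assemble. The study describes *nkx2.2* as enriched in the intestine and used riboprobes for *ctsla*, *ChAT* and *laminin* to label intestine, central nervous system and pharynx. Cathepsins also mark a separate class of planarian cells outside the intestine, and counts from whole animals cannot show in which cells a transcript lay.

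Stretches of the *nkx2.2* and *laminin* clones are shown because these transcripts changed in opposite directions. They were read from the study's clone sequences, of which 399 bases were held for each. In the *nkx2.2* clone, bases 96 to 263 form an uninterrupted reading frame, and the capitals mark the codons of the recognition-helix core that NK-2 homeodomains share.
nkx2.2: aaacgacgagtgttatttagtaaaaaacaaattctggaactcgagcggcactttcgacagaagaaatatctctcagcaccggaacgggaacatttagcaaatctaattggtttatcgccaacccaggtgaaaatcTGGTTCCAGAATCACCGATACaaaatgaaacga
In the *laminin* clone, bases 2 to 151 form an open frame, and the capitals mark 4 cysteine codons in that frame. Cysteines recur in the disulfide-bonded repeats of laminins, but the codons alone do not identify such a repeat.
laminin: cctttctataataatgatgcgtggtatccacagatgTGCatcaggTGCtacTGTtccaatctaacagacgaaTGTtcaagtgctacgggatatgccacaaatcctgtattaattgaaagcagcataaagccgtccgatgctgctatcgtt
For *ChAT* the cloning primers are shown, since they define the fragment that served as the marker of the nervous system.
ChAT forward primer: gccgagagaccgagtgaaaa
ChAT reverse primer: aagtcggtacctggcttgtg

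Total counts ranged from 16839133 to 23039326 per library. The knocked-down transcripts were lower in the 8 *apob* libraries than in every control library, with *apob-1* at 1229 to 1702 normalized CPM (counts per TMM-normalized library size) in control, 226 to 302 in *apob-M* and 241 to 327 in *apob-S*. No pair of replicates agreed within sampling noise (lowest chi-square per degree of freedom 2.84). This value was 95.3 to 125 between *apob-M* replicate 3 and the rest of its group, and 47.8 to 76.7 for *apob-S* replicate 2. Between control replicates 1 and 2 and control replicates 3 to 6 it was 25.6 to 39.4. What set these libraries apart was not tested. In *laminin*, control replicate 6 was the highest of its group and *apob-M* replicate 1 the lowest of its own. Only *apob-M* replicate 1 exceeded the outlier criterion described below. The changes of *laminin* are given with and without both libraries.

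Of the 4 markers, 2 rose (*nkx2.2* and *ChAT*) and 1 fell (*laminin*) in *apob-M* against control, where 15.3% of all transcripts tested were called (7.05% higher and 8.24% lower) at a Benjamini-Hochberg adjusted p of 0.05 from edgeR's quasi-likelihood test. In *apob-S* against control *nkx2.2* rose and *laminin* fell, with 29.3% of all transcripts called (13.5% higher and 15.7% lower). Directly compared, *apob-S* had more *nkx2.2* and less *laminin* than *apob-M*, with 12% of all transcripts called (5.17% higher and 6.86% lower). The marker *ctsla* was called in none of the 3 comparisons, at edgeR adjusted p values of 0.989, 0.69 and 0.778 in that order. In bulk RNA of whole animals, fewer cells of a type and less RNA per cell cannot be told apart. The comparisons with control share the control libraries, so they are not independent of each other.

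**Figure D1:**
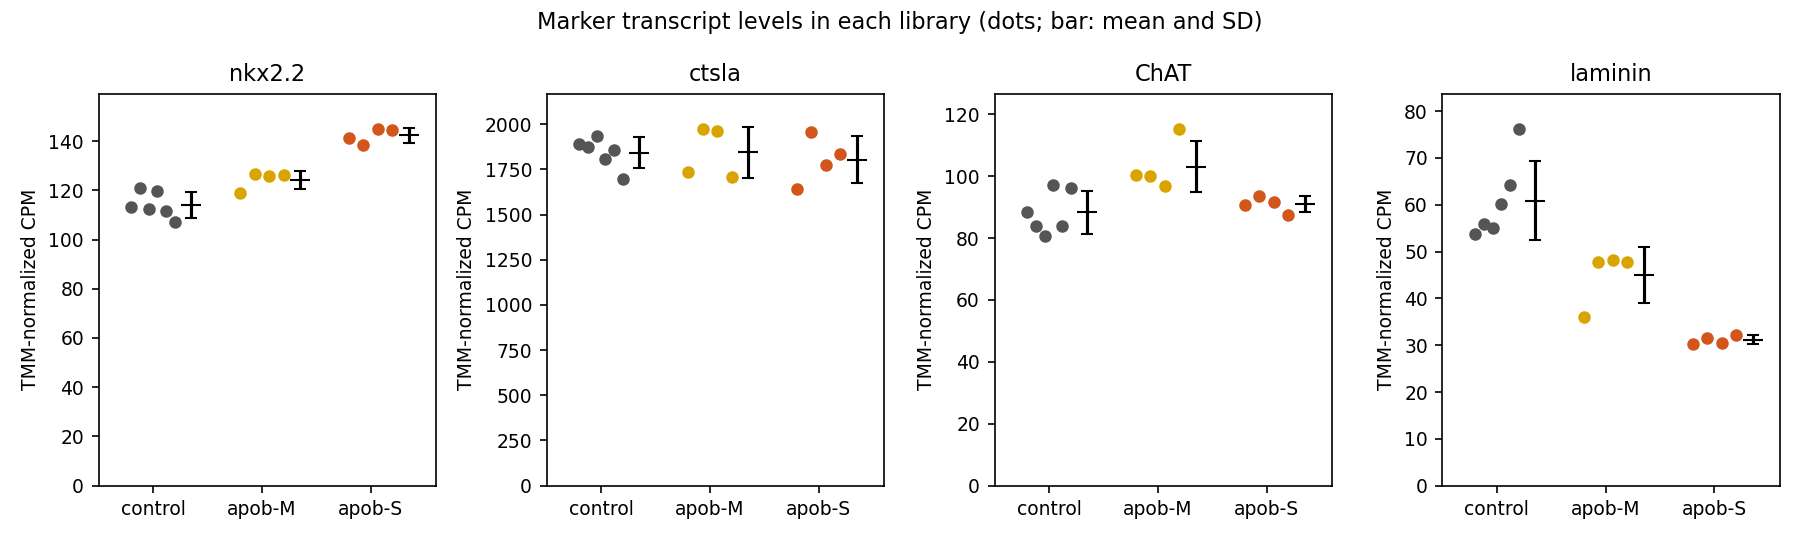
Normalized CPM of each marker transcript (vertical axes, from 0) in the 6 control, 4 *apob-M* and 4 *apob-S* libraries. Dots are libraries in order of replicate number, and bars give the mean and SD. The *apob-S* libraries lie at 139 to 145 for *nkx2.2* and 30.3 to 32.3 for *laminin*, apart from both other groups, while the groups overlap for *ctsla*.

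The levels of the markers spanned a wide range. Per kilobase of transcript, *ctsla* (1208 bases) was at 1526 ± 68.9 CPM (SD, n = 6) in control animals. It was followed by *nkx2.2* (1931 bases) at 59.1 ± 2.73, *ChAT* (2588 bases) at 34.1 ± 2.66 and *laminin* (3629 bases) at 16.8 ± 2.32 CPM per kilobase. The ranges of neighbours in this order did not overlap in any group, so that the order of levels was the same in control, *apob-M* and *apob-S*. In *apob-S* the levels were 1493 for *ctsla*, 73.7 for *nkx2.2*, 35.1 for *ChAT* and 8.59 CPM per kilobase for *laminin*. The least abundant marker still had at least 550 counts in every library.

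The means of the intestinal transcription factor *nkx2.2* rose in steps from control to *apob-M* to *apob-S*. By edgeR's exact test, which the study itself used, neither step was called (adjusted p = 0.237 and 0.0598), while *apob-S* against control was (adjusted p = 1.31e-05). Control libraries lay between 107 and 121 normalized CPM with a median of 113, the 4 *apob-M* libraries were at 119, 127, 126 and 126, and the 4 *apob-S* libraries were at 141, 139, 145 and 145. In *apob-M* 3 of 4 libraries exceeded every control library, and in *apob-S* all 4 exceeded every library of both other groups. Of all transcripts tested, 22.1% did not overlap between *apob-S* and control, and 15.8% did not overlap between the *apob* groups. Means were 114 ± 5.28 for control (SD, n = 6), 124 ± 3.62 for *apob-M* (SD, n = 4) and 142 ± 2.99 for *apob-S* (SD, n = 4). In *apob-S* *nkx2.2* was 24.6% above control, a log2 fold change of 0.32 (SE 0.04, edgeR adjusted p = 4.86e-06, exact two-sided permutation p = 0.00952, the smallest that 4 against 6 libraries can give). Against *apob-M* it was 14.4% higher, a log2 fold change of 0.19 (SE 0.0441, edgeR adjusted p = 0.00578, exact permutation p = 0.0286, the smallest for 4 against 4). The increase in *apob-M* was 8.91%, with a 95% interval of 2.73% to 15.5%, a log2 fold change of 0.12 (SE 0.0402, edgeR adjusted p = 0.0451, exact permutation p = 0.0286). This call was lost when any of 7 libraries was left out (control replicates 1, 3, 5 and 6 and *apob-M* replicates 2, 3 and 4), with log2 fold changes of 0.11 to 0.14 and edgeR adjusted p values of 0.0273 to 0.116 over all 10 libraries left out in turn.

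A further transcript of the same assembly component, dd_Smed_v6_2716_1_1 (1907 bases), was not called where *nkx2.2* was. Its level was 4.72 ± 0.318 CPM for control, 4.69 ± 0.382 for *apob-M* and 4.42 ± 0.157 for *apob-S*, from 75 to 111 counts per library. It was not called in either comparison with control (log2 fold change −0.01 in *apob-M* and −0.10 in *apob-S*, edgeR adjusted p = 0.952 and 0.517). The log2 ratio of *nkx2.2* to this transcript was 0.13 higher in *apob-M* than in control, which did not pass (exact permutation p = 0.19). It was 0.41 higher in *apob-S* than in control (exact permutation p = 0.00952) and 0.27 higher than in *apob-M* (exact permutation p = 0.0286). Reads that match both transcripts were counted on each, so the counts of the shorter one can include reads of *nkx2.2*.

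The intestinal protease *ctsla*, the most abundant of the markers, showed no difference larger than the spread between replicates. Control libraries ranged from 1696 to 1933 normalized CPM with a median of 1865, *apob-M* libraries were at 1737, 1973, 1963 and 1710, and *apob-S* libraries at 1644, 1957, 1776 and 1837. The 3 groups overlapped throughout. Means were 1844 ± 83.3 (SD, n = 6), 1846 ± 142 (SD, n = 4) and 1804 ± 130 (SD, n = 4). The 95% interval of the difference from control ran from −6.80% to 7.54% in *apob-M* and from −8.92% to 5.09% in *apob-S*. A change within these bounds, in either direction, was not excluded. The bounds are not limits of detection, and a somewhat larger change could also have gone uncalled over all transcripts. Exact permutation tests gave p = 1 in *apob-M*, 0.533 in *apob-S* and 0.686 between *apob-S* and *apob-M*. No library had fewer than 31321 counts of *ctsla*, where counting noise is at most 0.565% of the level, and the SD within groups was 4.52% to 7.67% of the mean.

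The neural marker *ChAT* was higher in *apob-M* than in control and near control levels in *apob-S*. Control libraries ranged from 80.6 to 97.2 normalized CPM with a median of 86.2. The *apob-M* libraries were at 100.3, 100.2, 96.7 and 115, and the *apob-S* libraries at 90.8, 93.8, 91.8 and 87.4. In *apob-M* 3 of 4 libraries lay above every control library, whereas all 4 *apob-S* libraries lay within the control range. No *apob-S* library reached an *apob-M* library, where 15.8% of all transcripts did not overlap between these groups. The increase in *apob-M* was 16.6%, from 88.4 ± 6.90 (SD, n = 6) to 103 ± 8.24 (SD, n = 4), a log2 fold change of 0.22 (SE 0.0575, edgeR adjusted p = 0.0123, exact permutation p = 0.019). Without *apob-M* replicate 4, the highest library, it was 0.16 and no longer called (edgeR adjusted p = 0.0638). In *apob-S*, at 91.0 ± 2.63 (SD, n = 4), the log2 fold change from control was 0.04 with a 95% interval from −0.08 to 0.16 (edgeR adjusted p = 0.655, exact permutation p = 0.476). The direct comparison of *apob-S* with *apob-M* gave −0.18 with a 95% interval from −0.31 to −0.05 (SE 0.0633). It did not pass the threshold over all transcripts (edgeR adjusted p = 0.0734), although the exact permutation test of *ChAT* alone gave its smallest p of 0.0286. DESeq2 called this difference, at −0.18 with an adjusted p of 0.0368. A higher level in *apob-M* than in *apob-S* therefore depended on the test.

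The pharynx marker *laminin* fell most, in the same stepwise order in which the means of *nkx2.2* rose. Control libraries ranged from 53.8 to 76.1 normalized CPM with a median of 58.0, *apob-M* libraries were at 36.1, 47.9, 48.1 and 47.9, and *apob-S* libraries at 30.3, 31.6, 30.5 and 32.3. No library of any group overlapped another group, where the share of all transcripts without overlap was 12.5% between *apob-M* and control, 22.1% between *apob-S* and control and 15.8% between both *apob* groups. The mean fell from 60.8 ± 8.43 (SD, n = 6) to 45.0 ± 5.94 with mild (SD, n = 4) and 31.2 ± 0.924 with severe phenotype (SD, n = 4). The log2 fold change from control was −0.97 in *apob-S* (SE 0.093, 95% interval −1.16 to −0.77, edgeR adjusted p = 1.74e-07), so that the level fell by 48.8%. By absolute fold change this was rank 313 of the 18436 transcripts tested in this comparison. In *apob-M* the decrease from control was smaller, at −0.44 (SE 0.0901, edgeR adjusted p = 0.00235). Between *apob-S* and *apob-M* it was −0.53 (SE 0.101, edgeR adjusted p = 0.00141). Exact permutation tests gave the smallest p that each design allows, 0.00952 against control and 0.0286 between the *apob* groups. With both control replicate 6 and *apob-M* replicate 1 left out, a fit chosen after the data were seen, the log2 fold change was −0.27 in *apob-M* (edgeR adjusted p = 0.00335), −0.89 in *apob-S* and −0.62 between *apob-S* and *apob-M*. The call in *apob-M* was kept at a smaller size.

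**Figure D2:**
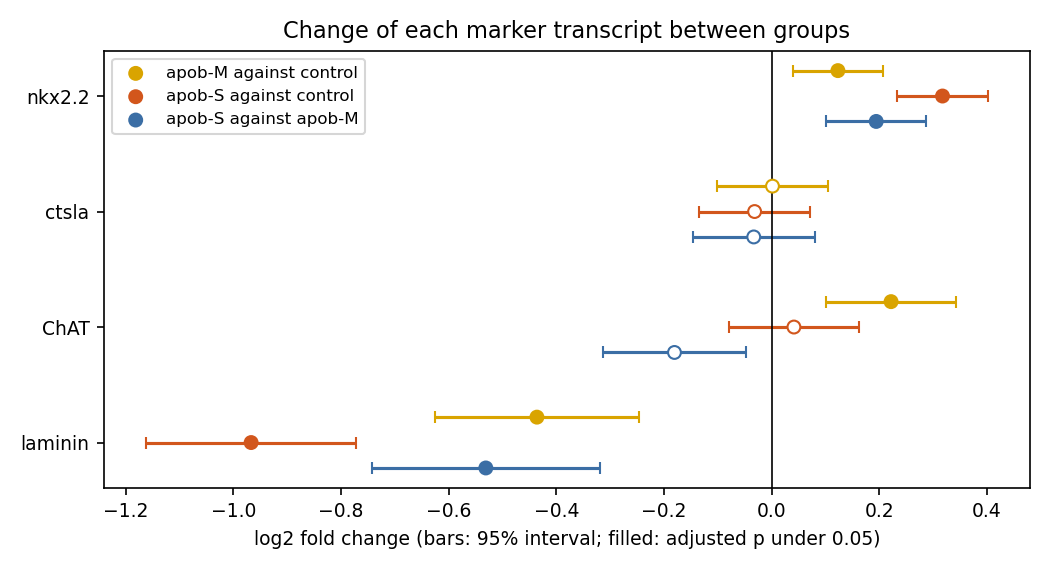
Log2 fold changes of the 4 marker transcripts (horizontal axis) in the 3 comparisons, from edgeR's quasi-likelihood fit of all 14 libraries. Bars are 95% intervals, and filled dots have an adjusted p under 0.05. Intervals of *nkx2.2* lie above 0 and those of *laminin* below 0 in each comparison, while those of *ctsla* span 0.

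The markers were next compared within each library, since a ratio of 2 transcripts of the same library does not depend on how libraries are scaled. All 6 pairs were tested in the 3 comparisons by two-sided exact permutation tests of the log2 ratio, with Benjamini-Hochberg adjustment over the 18 tests, and 11 passed. Every pair with *laminin* changed in both comparisons with control. Counts of *laminin* were 46.1% to 71.1% of those of *nkx2.2* in control libraries, 30.3% to 38.3% in *apob-M* and 21.1% to 22.8% in *apob-S*. On the log2 scale the ratio of *nkx2.2* to *laminin* was 0.56 higher in *apob-M* and 1.27 higher in *apob-S* than in control (exact permutation p = 0.00952, adjusted p = 0.0214 for each), and 0.71 higher in *apob-S* than in *apob-M* (exact permutation p = 0.0286, adjusted p = 0.0468). In *apob-S* both transcripts lay clear of the other groups on opposite sides. The 2 tests of this ratio with *apob-S* were therefore bound to give the smallest p and add nothing to the single results. The ratio of *ctsla* to *laminin* was 0.43 and 0.92 higher than in control, in the same order (exact permutation, adjusted p = 0.0214 for each). Relative to *ChAT*, counts of *laminin* went from 60.8% to 79.1% in control to at most 49.7% in *apob-M* and 33.3% to 36.9% in *apob-S*. The log2 ratio of *ChAT* to *laminin* was 0.66 higher in *apob-M* and 1.00 higher in *apob-S* than in control (exact permutation, adjusted p = 0.0214 for each). Its difference between *apob-S* and *apob-M*, 0.34, did not pass (exact permutation p = 0.0571, adjusted p = 0.0791).

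The intestinal markers also differed from each other. Counts of *nkx2.2* were 5.81% to 6.62% of those of *ctsla* in control libraries, 6.41% to 7.37% in *apob-M* and 7.08% to 8.58% in *apob-S*. The log2 ratio was 0.35 higher in *apob-S* than in control with no overlap between the groups (exact permutation p = 0.00952, adjusted p = 0.0214). In *apob-M* the difference was 0.12 and the groups overlapped (exact permutation p = 0.0667, adjusted p = 0.0857). The ratio of *nkx2.2* to *ChAT* was 0.27 higher in *apob-S* than in control (exact permutation, adjusted p = 0.0214) and 0.37 higher than in *apob-M* (exact permutation, adjusted p = 0.0468), while in *apob-M* it was −0.10 relative to control (exact permutation p = 0.257, adjusted p = 0.272). The test between the *apob* groups was also bound to pass, since *nkx2.2* and *ChAT* separated these groups in opposite directions. The ratio of *ctsla* to *ChAT* passed in none of the 3 comparisons, with differences of −0.22, −0.08 and 0.14 and exact permutation p values of 0.114, 0.438 and 0.257.

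**Figure D3:**
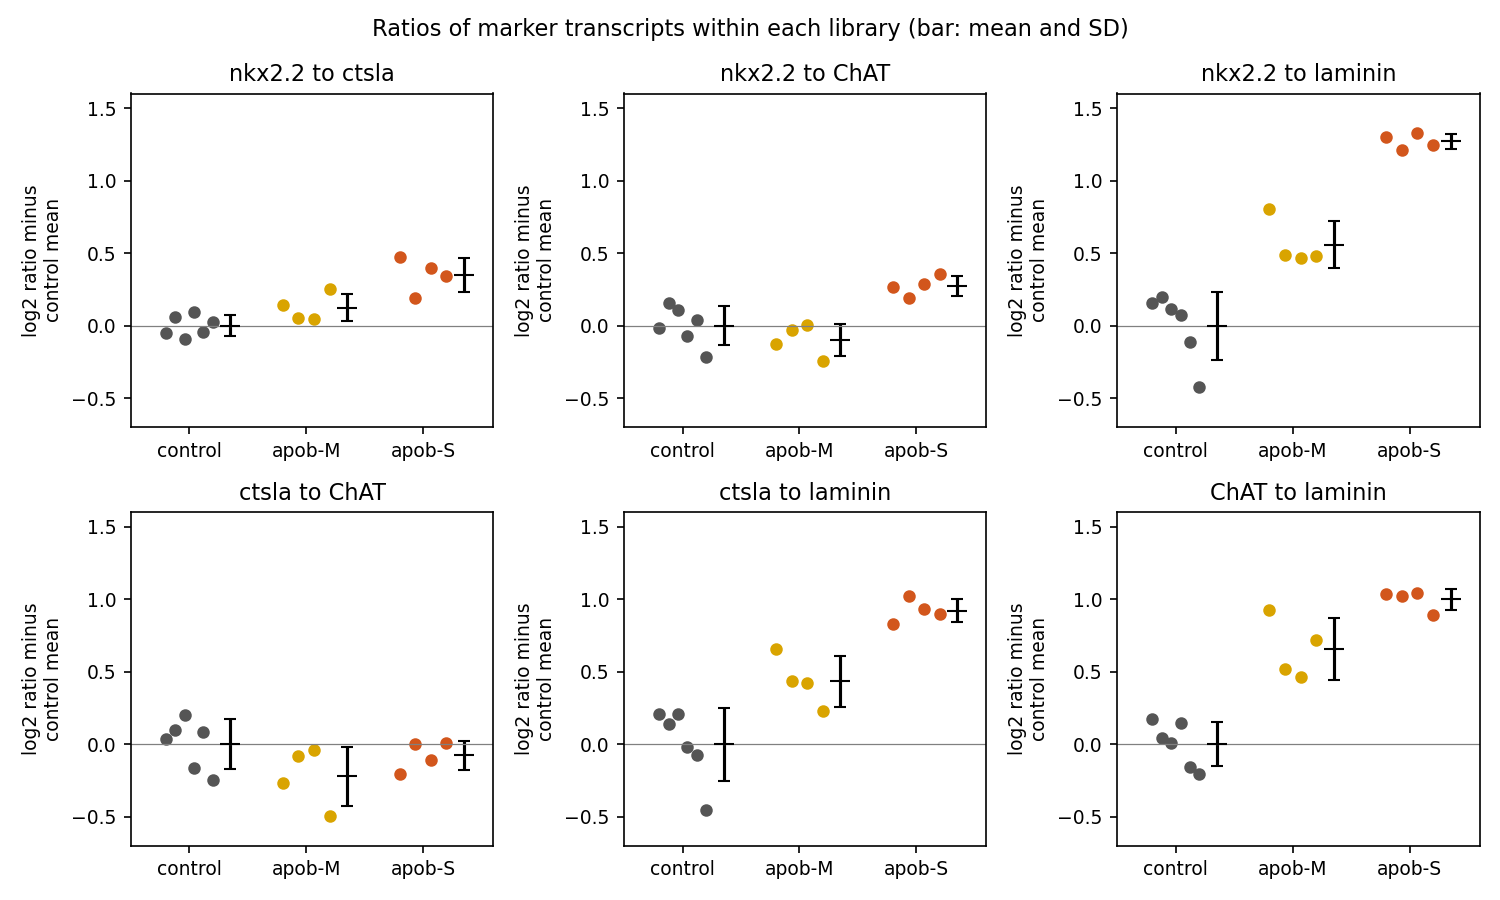
Log2 ratio of each pair of marker transcripts within a library, minus the mean of the 6 control libraries (vertical axes). Dots are libraries, bars give mean and SD, and the horizontal line is the control mean. Ratios to *laminin* rise from control through *apob-M* to *apob-S*, reaching 1.27 for *nkx2.2*, and the ratio of *ctsla* to *ChAT* overlaps between groups.

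Within groups, the markers varied together only loosely. After subtracting group means, log2 CPM of *ctsla* and *ChAT* over the 14 libraries had a Pearson's r of −0.539 and a Spearman's rho of −0.468, a description over libraries that share their normalization. The other pairs had r between −0.123 and 0.404. Among 13392 transcripts whose mean log2 CPM was 2 or more, the profiles nearest to each marker over the 14 libraries were found by the root mean square difference in log2 CPM, after subtracting control means. For *nkx2.2* these were dd_Smed_v6_1037_0_1, whose human best hit is RAB32, a small GTPase of lysosome-related organelles in mammals, at a difference of 0.0536, and dd_Smed_v6_722_0_1 at 0.0542. The median over all transcripts was 0.23. For *laminin* the nearest were dd_Smed_v6_9529_0_1 at 0.105 and dd_Smed_v6_5953_0_1 at 0.129, with a median over all transcripts of 0.59. The former fell by 0.48 and the latter by 0.44 on the log2 scale in *apob-M*, and they fell by 0.83 and 0.87 in *apob-S*. For *ChAT* they were dd_Smed_v6_12323_0_1 at 0.0637 and dd_Smed_v6_11743_0_1 at 0.0647, and for *ctsla* dd_Smed_v6_2420_0_1 at 0.0587 and dd_Smed_v6_7056_0_1 at 0.0639.

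Homologs related to each marker were gathered by human best hit from the study's annotation tables, which were held in part, and described by counts beside the shares of all transcripts called. A set of 6 transcription factors was gathered beside *nkx2.2*, picked by symbol from the GATA, PROX1, FOXA, FOXF and NKX families. Not all of them are factors of gut or pharynx. In *apob-S* 3 of the 6 rose, 0 fell and the median log2 fold change was 0.27, where 13.5% of all transcripts rose and the median over all transcripts was −0.003. In *apob-M* 1 of the 6 rose and 0 fell, beside 7.05% and 8.24% of all transcripts. The homolog of GATA4 (dd_Smed_v6_4075_0_1), a zinc-finger factor of gut endoderm in vertebrates, was at 50.1 to 54.3 normalized CPM in control, 51.7 to 66.0 in *apob-M* and 63.8 to 66.8 in *apob-S*. It rose in *apob-S* by 0.31 on the log2 scale from control (SE 0.052, edgeR adjusted p = 0.000134) and 0.19 from *apob-M* (edgeR adjusted p = 0.0337), and in *apob-M* it was 0.12 and not called (edgeR adjusted p = 0.152). The log2 ratio of *nkx2.2* to this homolog differed from control by 0.01 in either *apob* group, with an SD within groups of 0.0593 to 0.16. This pair was picked after its values had been seen, so the ratio is a description and no test of it is given. The homolog of FOXA1 (dd_Smed_v6_10718_0_1), whose planarian relative is known for pharynx formation, rose by 0.34 in *apob-M* and 0.23 in *apob-S* on the log2 scale (edgeR adjusted p = 0.00141 and 0.015), in the direction opposite to the pharynx marker *laminin*. The homolog of GATA3 (dd_Smed_v6_17393_0_1) rose by 0.35 in *apob-S* (edgeR adjusted p = 0.0459).

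Among 7 homologs of laminins, other basement membrane components and the laminin-binding receptor subunit ITGA3, transcripts moved both ways. In *apob-M* 2 of the 7 rose and 2 fell, beside 7.05% and 8.24% of all transcripts, and in *apob-S* 3 rose and 2 fell, beside 13.5% and 15.7%. The list had a median log2 fold change of 0.15 from control with mild and −0.005 with severe phenotype. The homolog of LAMA1 (dd_Smed_v6_7924_0_1, 9913 bases), a laminin alpha chain in mammals, was at 93.3 to 131 normalized CPM in control. Clear of the control range, as were 12.5% and 22.1% of all transcripts, it reached 193 to 235 with mild and 184 to 224 with severe phenotype. It rose by 0.98 (*apob-M*, edgeR adjusted p = 1.32e-07) and by 0.85 (*apob-S*, edgeR adjusted p = 2.16e-07) on the log2 scale, with an SE of 0.0832 and 0.0833, while *laminin* fell in both. The log2 ratio of *laminin* to the LAMA1 homolog, a comparison chosen after the values were seen, fell by 1.42 in *apob-M* and by 1.81 in *apob-S*. Since these transcripts were picked for lying on opposite sides of control, a test of this ratio against control was bound to pass, and none is given. Between *apob-S* and *apob-M* the ratio differed by −0.39, which did not pass (exact permutation p = 0.0571). The homolog of LAMA2 (dd_Smed_v6_9493_0_1) was not called, with log2 fold changes of 0.15 and −0.05. The homolog of SPARCL1 (dd_Smed_v6_1021_0_1), of a family of matrix-binding glycoproteins, fell in the same order as *laminin*, by 0.33 in *apob-M* and 0.62 in *apob-S* on the log2 scale (edgeR adjusted p = 0.000101 and 1.37e-08), and differed between the *apob* groups as well (log2 fold change −0.29, edgeR adjusted p = 0.00103). Of the homologs of HSPG2, the basement membrane proteoglycan perlecan, dd_Smed_v6_1054_0_1 fell by 0.20 and 0.23 in *apob-M* and *apob-S*, and the much rarer dd_Smed_v6_18579_0_1, at 2.98 ± 0.731 CPM in control, rose by 1.15 in *apob-S* (edgeR adjusted p = 5.22e-06).

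**Figure D4:**
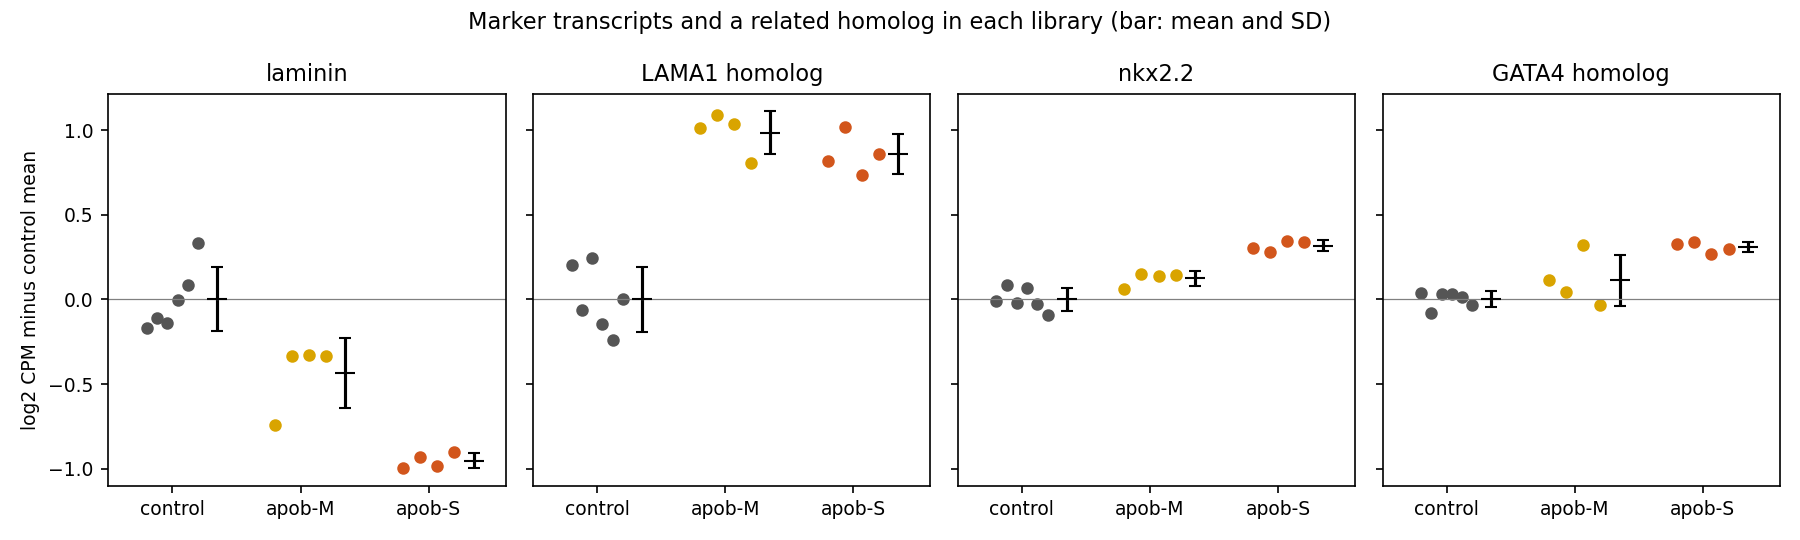
Log2 CPM minus the control mean (vertical axis) of *laminin*, the LAMA1 homolog, *nkx2.2* and the GATA4 homolog in each library. Dots are libraries and bars give mean and SD. The 8 *apob* libraries lie below control for *laminin* and above control for the LAMA1 homolog, whereas *nkx2.2* and the GATA4 homolog are both highest in *apob-S*.

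Cathepsin homologs moved in both directions around *ctsla*. Of 12 such transcripts other than *ctsla*, 1 rose and 5 fell in *apob-M*, beside 7.05% and 8.24% of all transcripts, and 3 rose and 6 fell in *apob-S*, beside 13.5% and 15.7%. The list had a median log2 fold change of 0.01 with mild and −0.06 with severe phenotype, where the median over all transcripts was −0.003 in each. The homolog of CTSL dd_Smed_v6_1363_0_1 was at 87.7 to 96.5 normalized CPM in control, 91.5 to 105 in *apob-M* and 51.5 to 69.4 in *apob-S*, and fell by 0.68 in *apob-S* on the log2 scale (SE 0.0665, edgeR adjusted p = 2.23e-07). Another homolog of CTSL, dd_Smed_v6_48_0_1, the most abundant cathepsin of the list at 4160 ± 184 CPM in control, rose by 0.24 in *apob-S* (edgeR adjusted p = 1.36e-05). The homolog of CTSD (dd_Smed_v6_329_0_1), an aspartic protease of lysosomes, rose by 0.14 in *apob-S* from control and by 0.12 from *apob-M* on the log2 scale (edgeR adjusted p = 0.000556 and 0.0153). The homolog of CTSF (dd_Smed_v6_456_0_1) rose by 0.19 in *apob-M* and 0.29 in *apob-S* (edgeR adjusted p = 0.000996 and 3.88e-06). The largest decrease of the list in *apob-M* was that of the CTSS homolog dd_Smed_v6_13139_0_1, which fell by 0.54 there and by 0.62 in *apob-S* (edgeR adjusted p = 0.000365 and 2.67e-05). A homolog of CTSV, dd_Smed_v6_2268_0_1, fell by 0.44 and 0.35, and another, dd_Smed_v6_175_0_1, fell by 0.21 and 0.09. Reads shared between similar cathepsins were counted on each of them, so the split among these transcripts is uncertain.

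Of the 6 cholinergic and other neuronal homologs, 0 rose and 1 fell in *apob-M*, where 7.05% of all transcripts rose and 8.24% fell. In *apob-S* the SYT7 homolog is not counted, because it passed the filter on low counts only through those libraries. Of the rest, 1 fell and no other member was called higher in *apob-S*, where 13.5% of all transcripts rose and 15.7% fell. With so few members these counts are near the shares over all transcripts, and nothing is read from them. The homolog of BCHE (dd_Smed_v6_10334_0_1), an esterase that cleaves choline esters in mammals, was at 34.6 ± 1.06 CPM in control and 36.1 ± 2.06 in *apob-M*, with a log2 fold change of 0.06 (edgeR adjusted p = 0.357). The homolog of CHRNB3 (dd_Smed_v6_10322_0_1), a subunit of nicotinic acetylcholine receptors, had a log2 fold change of −0.08 in *apob-M* and fell by 0.19 in *apob-S* (edgeR adjusted p = 0.459 and 0.0216). The homolog of CELF3 (dd_Smed_v6_2592_0_1), an RNA-binding protein of neurons, fell by 0.15 in *apob-M* (edgeR adjusted p = 0.0128). The homolog of SYT7 (dd_Smed_v6_22061_0_1), a calcium sensor of vesicle fusion in mammals, had 1 to 11 counts per control library, 2 to 10 per *apob-M* library and at least 112 per *apob-S* library, at 5.59 to 12.4 normalized CPM in *apob-S* against at most 0.513 in control and 0.528 in *apob-M*. It passed the filter on low counts only through the *apob-S* libraries, so these values are a description and no test of them is given.

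**Figure D5:**
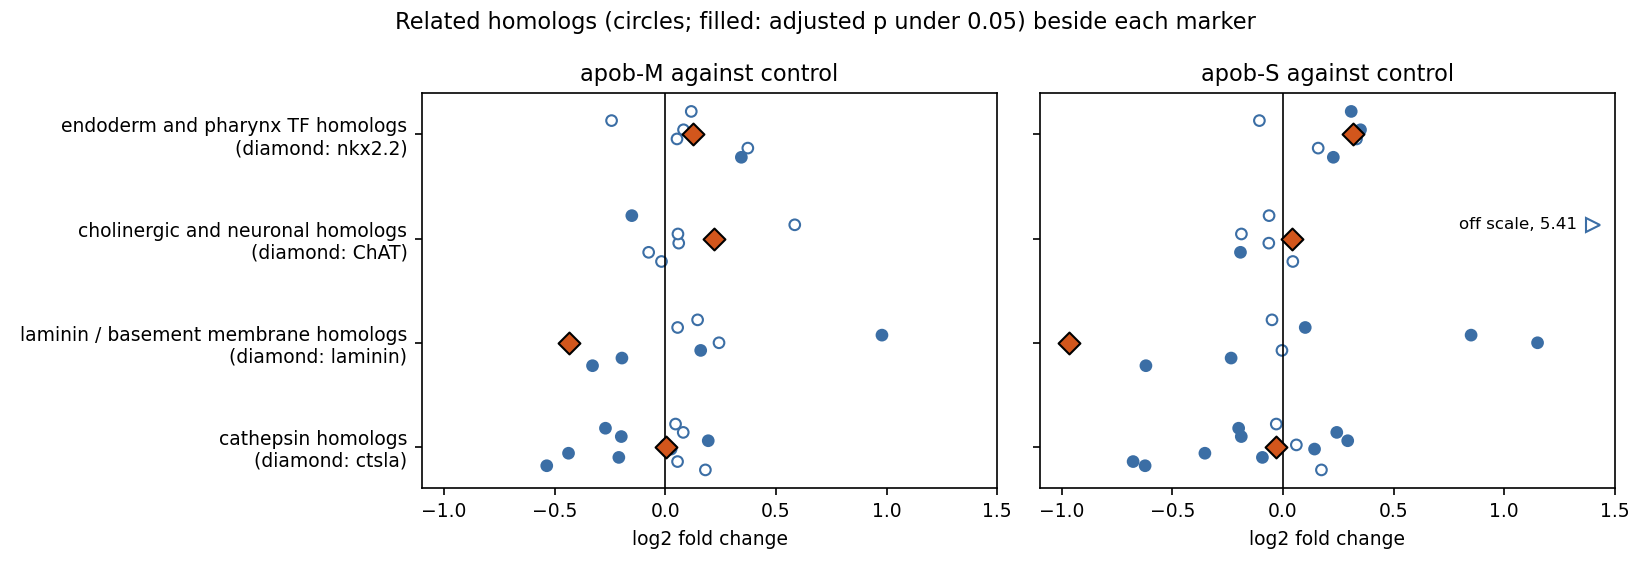
Log2 fold change (horizontal axes) of each related homolog (circles, filled where the edgeR adjusted p is under 0.05) beside its marker (diamonds) in *apob-M* and *apob-S* against control. The open arrowhead is the SYT7 homolog at 5.41, beyond the axis, shown without a test. Basement membrane homologs lie on both sides of 0 while *laminin* lies at −0.44 and −0.97.

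Other markers that the study names give the frame for these values. The neoblast (stem cell) marker *piwi-1* was not called, at 404 ± 6.83 CPM in control and 429 ± 9.21 in *apob-S* (log2 fold change 0.09, edgeR adjusted p = 0.0623). The marker *tgs-1*, of a neoblast subset, rose by 0.68 in *apob-M* and 0.64 in *apob-S* (edgeR adjusted p = 0.000266 and 0.000156). The early epidermal progeny marker *prog-1* fell by 0.22 in *apob-M* and 0.75 in *apob-S* (edgeR adjusted p = 0.0202 and 3.19e-08), and like *laminin* was lower with severe than with mild phenotype (log2 fold change −0.53, edgeR adjusted p = 4.28e-05). Of other transcripts that the study cloned, *npc2* had log2 fold changes of −0.40 in *apob-M* and −0.23 in *apob-S* (edgeR adjusted p = 0.00188 and 0.0397). Those of *slc22a6* were 0.25 and 0.35 (edgeR adjusted p = 0.000353 and 2.97e-06). The part of changes in the makeup of the animals in the marker values was not tested. Of the transcripts that the study used as qPCR references, *ef-2* was not called, at log2 fold changes of 0.03 and 0.00, whereas *gapdh* fell by 0.20 and 0.26 (edgeR adjusted p = 5.94e-05 and 6.2e-07). Scaling to these references moved the median of all transcripts up by 0.08 in *apob-M* and 0.13 in *apob-S* on the log2 scale, and with it *ChAT* in *apob-S* to 0.17, which was then called (edgeR adjusted p = 0.0175). Relative to the shift of all transcripts, that is the same 0.04 as under TMM. The directions of *nkx2.2* and *laminin* held under every scaling tried.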

How the data were processed

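The 14 RNA-seq libraries of whole planarians were grouped by their labels (6 control, 4 *apob-M*, 4 *apob-S*). After trimming with BBDuk, the authors aligned reads by Bowtie2 2.3.1 in local mode, keeping multiple alignments, to the unique transcripts of the dd_Smed_v6 assembly, and counted them with featureCounts (Subread 1.6.3). Reads that matched several transcripts were counted on each. The authors deposited these counts without normalization, and their table of comparisons (log2 fold changes, p-values) was not used. No genome was used, so no coordinates are given.

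The filter required 1 CPM in 4 or more libraries. It retained 99.7% or more of each library's counts, which totalled between 16839133 and 23039326. All 14 libraries were fitted with edgeR 4.0.16's quasi-likelihood test (R 4.3.3, TMM, group as the only term, Benjamini-Hochberg adjustment over 18436 transcripts, threshold 0.05). Fold changes carry 95% intervals. Single values and log2 ratios were tested by two-sided exact permutation over libraries of log2 CPM (prior count 2). Pools of animals are separate, but nothing states whether they came from separate RNAi experiments. Counting noise at the lowest count of each marker and group was at most 4.26% (*laminin*, 550 counts).

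The markers and lists were chosen with earlier results of these data known. Named transcripts were all 4 markers. Of each homolog list, the called members with the largest change (at most 4) and those called between *apob-S* and *apob-M* were named. Some other transcripts and the references that the study names were also given, with the 2 nearest profiles per marker. LAMA2 and BCHE homologs, *npc2* and *slc22a6* were added after their values were seen. Human best hits came from the study's supplementary tables, held in part (1993 transcripts with a hit). These may include its tables of changed transcripts, so the homolog lists may favour changed members. Scripts were tested on simulated counts. Alternatives were DESeq2 1.42.0, limma-voom (limma 3.58.1), edgeR's exact test, other scalings, no filter or 5 CPM, the compared groups alone, a replicate block, another prior count (0.5) and leaving out single libraries.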

Additional observations from a re-analysis of the deposited data

Results flagged for a closer look

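In each group of 4 to 6 libraries, the gap between the outermost library and its neighbour was compared with the range of the group (Dixon's criterion), for the 4 markers in 3 groups, 12 sets in all. Chance exceeds the limit in about 1 of 20 sets. A pair of sets exceeded it, both through *apob-M* replicate 1, which held the lowest value of *nkx2.2* and of *laminin* in its group. For *nkx2.2* it was at 119 normalized CPM with the nearest library at 126, a gap of 0.878 of the range against a limit of 0.829. For *laminin* it was at 36.1 normalized CPM with the nearest library at 47.9, a gap of 0.979 of the range. Without this library the log2 fold change of *laminin* in *apob-M* was −0.34 (edgeR adjusted p = 0.00985) and that of *nkx2.2* was 0.14 (edgeR adjusted p = 0.0372). The cause was not tested.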

How the results depend on the processing

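Of 250 marker results under alternatives, left-out libraries included, 233 kept their direction and their side of the threshold. The exceptions concerned *nkx2.2* and *ChAT* and no call of *laminin* or *ctsla*. The increase of *nkx2.2* in *apob-M* was not called by edgeR's exact test (log2 fold change 0.12, adjusted p = 0.237), with library size alone (0.13, edgeR adjusted p = 0.157), with no filter (0.12, edgeR adjusted p = 0.0699) or on the same 8 libraries as the block without the block, added after seeing the data (0.10, edgeR adjusted p = 0.171). Its difference between *apob-S* and *apob-M* was not called by edgeR's exact test (0.19, adjusted p = 0.0598) or with library size alone (0.18, edgeR adjusted p = 0.0831). The difference of *ChAT* between *apob-S* and *apob-M* was called by DESeq2 (−0.18, adjusted p = 0.0368), and that in *apob-S* against control when scaled to *ef-2* and *gapdh* (0.17, edgeR adjusted p = 0.0175).

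The labels do not say whether replicate numbers pair libraries across groups. Residuals of same-numbered libraries correlated at −0.198 to 0.125, above 0.1 in 1 of 12 pairs, so no pairing was seen. Correlations this few cannot exclude it. Fitted with the number as a block on replicates 1 to 4, *nkx2.2* in *apob-M* was at 0.10 (edgeR adjusted p = 0.217) and 1654 transcripts were called in *apob-M* against 2036 on the same 8 libraries without the block and 2819 in all 14 libraries. Library size alone gave 1795.

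With each library left out in turn, *nkx2.2* in *apob-M* ranged from 0.11 to 0.14 and *ChAT* in *apob-M* from 0.16 to 0.26. The number of log2 ratios that passed ranged from 0 to 11. It was 0 without any *apob-S* library and 5 without any *apob-M* library, where 3 libraries against 6 or 4 allow an exact permutation p of no less than 0.0238 or 0.0571. In *apob-S* counting noise at the lowest count was near the whole spread between libraries for *laminin* (4.26% against an SD of 2.96%), *nkx2.2* (2.01% against 2.10%) and *ChAT* (2.59% against 2.89%), so depth as well as 4 to 6 pools per group limits small differences.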
